A study of Mus musculus with 27 samples.

Results

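The 10 genes described here lie in the imprinted region at the distal end of mouse chromosome 7: H19, Igf2, Ascl2, Cd81, Kcnq1, Kcnq1ot1, Cdkn1c, Phlda2, Slc22a18 and Nap1l4, out of 25209 genes in each deposited table. They were chosen by name from 2 imprinted domains, with the ratios of KO to WT of each clone in these tables already known, so every comparison of KO with WT and of one clone with the other is a description of these libraries and carries no test. The study removed Zfp512b, a zinc finger protein, from V6.5 mouse embryonic stem cells (mESCs) by placing a transcriptional terminator after exon 3. mRNA was sequenced in 27 libraries of WT cells and of the KO clones #4 and #8, with 3 libraries per group in naive cells (day 0, with LIF plus a MEK and a GSK3 inhibitor) and 2 per group in primed cells (day 2, in serum with LIF), cardiomyocytes (CMs, day 7.5, from embryoid bodies with vitamin C) and neural progenitor cells (NPCs, day 10, from embryoid bodies with retinoic acid). Each KO group is a single clone, both clones carry the same Zfp512b alteration plus a selection gene, and the WT cells did not pass through editing and selection, so the effect of losing Zfp512b and the history of a clone cannot be told apart. Nothing in the sources used here says whether the libraries of a group came from separate cultures.

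In an imprinted region one parental copy of a gene is silent. H19, a non-coding RNA, is made from the maternal copy and Igf2, a growth factor of fetal tissues, from the paternal copy. Between them lies a control region that binds the insulator protein CTCF only when it is unmethylated, which keeps distant enhancers from reaching Igf2. Farther along the chromosome, the paternal copy makes Kcnq1ot1, a long RNA antisense to the potassium channel gene Kcnq1, which silences its neighbours on that copy, among them the cell cycle inhibitor Cdkn1c, the placental growth inhibitor Phlda2, the transporter gene Slc22a18 and, mainly in placenta, the trophoblast transcription factor Ascl2. Cd81, a membrane tetraspanin, and Nap1l4, a histone chaperone, are weakly imprinted or only so in placenta. These libraries do not separate the parental copies, and imprinting itself was not measured.

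In the authors' build, mm9 (NCBIM37), H19 spans 149761434 to 149764048 of chromosome 7 (minus strand), a processed transcript in the annotation, with 2372 exonic bases. Igf2, which is protein-coding, lies 72.6 kb farther on at 149836673 to 149852721, also on the minus strand. Ascl2 (150152727 to 150155169), Cdkn1c (150644255 to 150646955), Phlda2 (150687450 to 150688446) and Nap1l4 (150699484 to 150734997) are on the minus strand, and Cd81 (150238644 to 150253839), Kcnq1 (150293159 to 150612955) and Slc22a18 (150659626 to 150685239) on the plus strand. From H19 to Nap1l4 the region spans 973.6 kb. Kcnq1ot1 has no entry in the annotation used here, so no coordinates or length are given for it.

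Sites in the control region upstream of H19 are shown because this region is known to set the balance of H19 and Igf2. A core of the CTCF motif (CCGC, any 2 bases, GG, any 1 base, then GGCAG) was searched on both strands in the 5 kb before the start of each gene. H19 has 4 matches, all on the minus strand as H19 itself, and they are printed with 8 bases on each side and the core in capitals:
site 1, chr7:149766206-149766235: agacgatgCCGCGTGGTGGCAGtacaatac
site 2, chr7:149766661-149766690: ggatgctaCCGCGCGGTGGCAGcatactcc
site 3, chr7:149767687-149767716: cagggttgCCGCACGGCGGCAGtgaagtct
site 4, chr7:149767931-149767960: gggagttgCCGCGTGGTGGCAGcaaaatcg
The cores lie 2166, 2621, 3647 and 3891 bases before the start of H19. Of 37251 genes, 94 (0.252%) have at least 1 match in a window of this length, and of 33867 gene names 2 have 4 or more, with H19 itself counted. The window before Mir675, a microRNA gene inside H19 on the same strand, covers the same 4 sites, so this count is not one of independent regions. A match of letters is not a measured binding site, and binding and methylation were not measured here.

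H19 also holds the microRNA hairpin Mir675 in an exon (149762969 to 149763052), and Igf2 holds Mir483 in the intron from 149840354 to 149841372 (149840829 to 149840901). Their mature sequences from RefSeq (GRCm38.p6) are shown, with the seed (bases 2 to 8) in capitals, because the Mir483 row is used below as a second readout of the Igf2 locus:
miR-675-5p: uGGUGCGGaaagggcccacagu
miR-675-3p: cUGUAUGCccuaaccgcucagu
miR-483-5p: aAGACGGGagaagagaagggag
miR-483-3p: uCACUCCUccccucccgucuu
The 4 microRNAs have different seeds. The libraries hold long RNA, so a read on such a row comes from the host transcript or precursor and not from the mature microRNA.

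Each deposited table names WT and 1 clone of 1 stage, and the value used here is its base mean, the mean of normalized reads over the 4 libraries compared (6 in naive cells). A base mean is a sum of whole reads, each multiplied by a weight of its library. Genes with 1 read in 1 library give these weights, and the libraries that appear in both tables of a stage are the WT libraries, the group that both tables name. With the weights known, whole reads per library were solved for from both base means of a gene. For all genes below a set base mean, 5819 in naive cells, 9554 in primed cells, 9102 in NPCs and 8693 in CMs, a solution was found, and it was the only one for all but 3 naive genes. For the members, reads per library were obtained in 19 of 40 combinations of gene and stage, those with 1 solution. Naive Igf2 and naive Ascl2 had 6 and 23 solutions, where base means shifted by whole printed digits gave 3.90 and 19.6 on average, and for these the range over all solutions is given. The remaining 19 have base means too high to be solved, and only what the base means themselves allow is given. Normalized reads are reads divided by the size factor of the library, and the letters a, b and c name libraries without an order. The targeted gene checks the labels in primed cells only. There Zfp512b had 929 and 977 normalized reads in WT libraries, 191 and 219 in KO #4 and 184 and 154 in KO #8. This was the only solution, although shifted base means gave 0.75 on average. In CMs Zfp512b had 3 solutions, with all libraries of both clones below WT in 1 and above WT in 1. In naive cells and NPCs its base means were too high to be solved.

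The labels of the stages were checked against markers. In parts per 1000000 of the table total (ppm), naive markers summed to 4079 and 4124 in the 2 naive tables, and primed markers to 190.7 and 192.3. In the primed tables the primed markers summed to 1289 and 1373, of which Dnmt3b alone made up 1115 and 1184. The naive markers still summed to more there, 1855 and 1778. In the NPC tables all 7 neural progenitor markers were above 1 ppm and summed to 344 and 355, but Pax6 had only 17.5 and 17.2 and Sox1 7.84 and 11.5, whereas the mesenchyme markers summed to 936 and 923, with Col3a1 at 581 and 516. Igf2 and H19 are well known in embryonic mesenchyme, and the part of such cells in the NPC and CM levels was not tested; in bulk samples fewer cells of a type and less RNA per cell cannot be told apart. Neither marker sum differed between the 2 NPC tables by more than 1.5 times.

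H19 was higher in KO #4 than in WT and KO #8 in naive cells, primed cells and NPCs. In naive cells it had 11.8, 5.00 and 14.6 normalized reads in the WT libraries, 132, 122 and 141 in KO #4 and 0, 8.93 and 5.25 in KO #8. All KO #4 libraries thus lay above all others, whereas KO #8 overlapped WT. The means were 10.5 ± 4.96 (SD, n = 3) in WT, 131 ± 9.40 in KO #4 and 4.73 ± 4.49 in KO #8, which puts KO #4 12.5-fold above WT. In primed cells H19 had 227 and 220 normalized reads in WT, 1399 and 1469 in KO #4 and 74.5 and 89.1 in KO #8. Here the clones lay on opposite sides of WT, KO #4 at 6.42-fold (1434 ± 49.8, SD, n = 2, against 223 ± 5.37) and KO #8 at 0.366-fold (81.8 ± 10.3).

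In KO #4 the mean of Igf2 lay above WT in naive cells and below it in primed cells. In naive cells its reads per library were not determined, since 6 solutions gave the same base means. Over these the mean was 11.6 to 38.8 normalized reads in WT, 84.1 to 111 in KO #4 and 58.7 to 85.8 in KO #8, so the means of both clones lay above that of WT in all 6. All KO #4 libraries lay above all WT libraries in 4 of the 6 and all KO #8 libraries in 3, so whether the groups overlapped is not known. In primed cells Igf2 had 317 and 265 normalized reads in WT, 61.1 and 175 in KO #4 and 254 and 262 in KO #8. KO #4 was lower, at 0.406-fold of WT, but its 2 libraries differed by more than the others (118 ± 80.9, SD, n = 2, against 291 ± 36.8), and without KO #4 library b the log2 ratio went from -1.30 to -2.25. The KO #8 libraries fell just below the lower WT library, at 0.884-fold (258 ± 5.41).

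**Figure D1:**
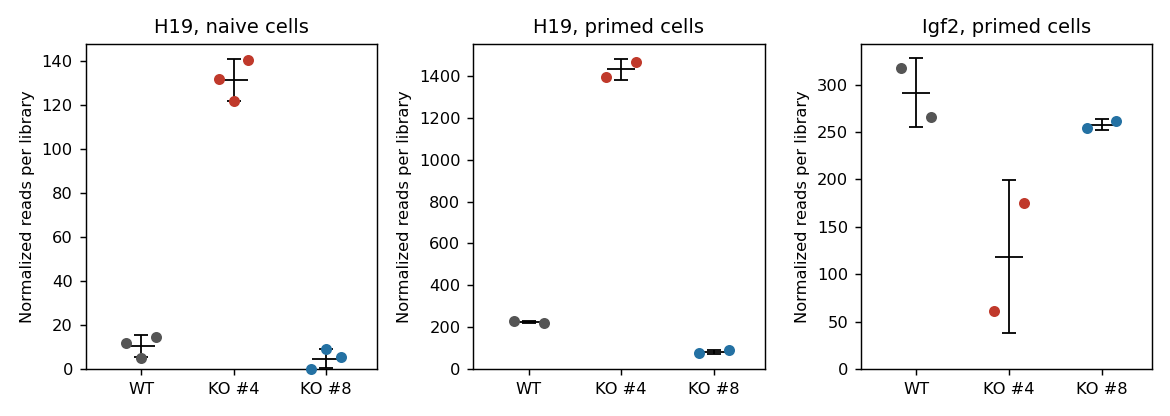
Normalized reads in each library of H19 in naive cells (left) and primed cells (middle) and of Igf2 in primed cells (right), with the group mean and SD as a bar (n = 3 in naive and 2 in primed cells). KO #4 stands above WT for H19 at both stages, with 131 against 10.5 and 1434 against 223, and below WT for Igf2 in primed cells, with 118 against 291.

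The number of H19 reads per Igf2 read within a library does not depend on the size factor. In primed cells it was 0.716 and 0.827 in WT, 22.9 and 8.37 in KO #4 and 0.294 and 0.341 in KO #8, so that the 3 groups were separate. In naive cells it could not be given per library, and the ratio of the base means of H19 and Igf2 was 1.16 in the KO #4 table and 0.156 in the KO #8 table.

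In NPCs H19 had a base mean of 45198 in the KO #4 table and 8212 in the KO #8 table, and Igf2 53624 and 91727. For both tables to hold the same WT libraries, H19 must lie between 74539 and 90395 normalized reads in KO #4, and at most at 15857 in WT and in KO #8. H19 in KO #4 NPCs was therefore at least 4.70-fold above WT and at least 5.70-fold above KO #8. Igf2 went the other way, with a mean in KO #8 that exceeded that of KO #4 by 69869 normalized reads and by a factor of at least 1.65. On which side of WT each clone lay for Igf2 cannot be given from these sums. These bounds carry no spread between libraries.

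In CMs the tables were closer in H19 and again far apart in Igf2. H19 had base means of 13688 (KO #4 table) and 11755 (KO #8 table), so that KO #4 exceeded KO #8 by 4577 normalized reads, and by a factor of at least 1.20. Igf2 had base means of 55122 and 107582, so KO #8 exceeded KO #4 by 98415 normalized reads, and by a factor of at least 1.89. For neither gene can the side of WT on which a clone lay in CMs be given from these sums.

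In the same 2 CM tables cell type markers also differed, and their values stand beside every CM result here. The 8 cardiomyocyte markers, among them the sarcomere genes Actc1 and Myh7, were all above 1 ppm in both CM tables, with a sum of 1715 ppm in the KO #4 table and 2509 in the KO #8 table. The 7 markers of endothelium and blood summed to 568 and 1442, the 7 of mesenchyme to 1063 and 3178 and the 9 of endoderm to 290 and 595. Neural progenitor markers went the other way, with 510 and 186 and, for Sox1, 97.7 and 4.56 ppm, as did the 5 primed markers, with a sum of 650.2 and 417.5 and, for Otx2, 156 and 56.8 ppm. The naive markers summed to 219.5 and 173, but they did not all go the same way. Nanog (48.6 and 16.4), Esrrb (33.8 and 11.8), Zfp42 (19.3 and 5.13), Prdm14, Klf2 and Tfcp2l1 were higher in the KO #4 table. Tbx3 (26.4 and 61.1) and Klf4 were higher in the KO #8 table. The part of these cells in the CM results was not tested.

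The rows inside the 2 genes add values per library at the Igf2 locus, and they were taken up after their values were seen. Mir483, in an Igf2 intron, had 39.8 and 53.2 normalized reads in WT NPCs, 1.93 and 2.09 in KO #4 and 39.6 and 26.9 in KO #8. WT was 23.0-fold above KO #4 (93 against 4 reads, 95% exact interval of 8.69 to 86.2 for counting error only) and 1.38-fold above KO #8. In CMs Mir483 had 8.39 and 12.8 in WT, 0 in both libraries of KO #4 and 19.7 and 22.5 in KO #8. With a floor of 3 reads over the KO #4 group in place of 0, WT was 6.76-fold above KO #4. This value leaves out the counting error of the 22 WT reads. At both stages the KO #4 libraries were at or near 0, whereas WT over KO #8 was 1.38 in NPCs, where these groups nearly met (39.8 against 39.6 normalized reads), and 0.5004 in CMs. These reads fall on 73 bases of an intron and the row counts are small, so whether they stand for the level of Igf2 mRNA was not tested.

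Igf2os, an antisense transcript that overlaps Igf2, was lower in the KO #4 than in the KO #8 tables of NPCs (base means of 796 and 1438) and CMs (749 and 1612), as Igf2 was. In primed cells it had 27 reads in WT, 9 in KO #4 and 19 in KO #8, and in naive cells 7, 34 and 30, the same order of group means as Igf2 at each of these stages, in naive cells under all 6 solutions for Igf2. Whether the authors' counting used the strand is not stated, and reads of Igf2 and Igf2os then cannot be told apart. Mir675 was listed at 0 in all 8 tables although H19 around it was counted in NPCs at a base mean of up to 45198, so the row holds nothing on H19.

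**Figure D2:**
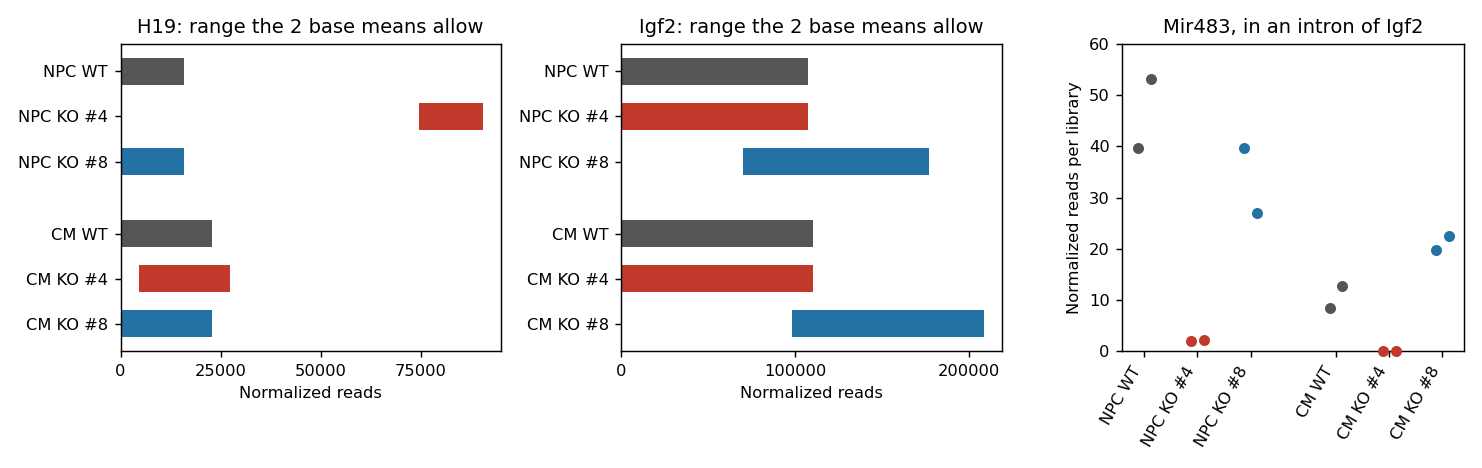
Left and middle, the range of the group mean of H19 and Igf2 (normalized reads) that both base means allow in NPCs and CMs; the bars are limits, not errors. Right, normalized reads of Mir483 in each library (2 per group); the KO #4 libraries are at 1.93 and 2.09 in NPCs and at 0 in CMs. H19 in KO #4 NPCs is the one range for H19 that lies apart from WT.

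Kcnq1ot1, the RNA that silences its domain, was higher in both clones than in WT in primed cells. It had 21.9 and 25.0 normalized reads in WT, 46.8 and 40.01 in KO #4 and 38.3 and 44.5 in KO #8. Both clones lay above WT without overlap, 1.86-fold and 1.77-fold (43.4 ± 4.82 and 41.4 ± 4.42 against 23.4 ± 2.19, SD, n = 2). In naive cells all 3 groups overlapped, with means of 43.3 ± 10.1, 51.8 ± 19.3 and 51.4 ± 6.07 (SD, n = 3); this was the only solution, although shifted base means gave 1.55 on average. In NPCs it had 223 and 219 in WT, 296 and 199 in KO #4 and 173 and 182 in KO #8, where only KO #8 was apart from WT, at 0.803-fold. In CMs it had 71.8 and 107 in WT, 41.0 and 49.4 in KO #4 and 59.2 and 80.9 in KO #8, where only KO #4 was apart, at 0.505-fold. The side of WT on which Kcnq1ot1 lay was thus not the same across stages.

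Kcnq1, which Kcnq1ot1 overlaps in antisense, was weakly counted everywhere, and reads of both cannot be told apart if the strand was not used. In CMs it had 32.6 and 25.6 normalized reads in WT, 20.7 and 24.6 in KO #8 and only 0 and 2.10 (0 and 2 reads) in KO #4. WT over KO #4 was 27.7, with a 95% exact interval of 7.46 to 238 for counting error, and KO #8 was at 0.776-fold of WT. Without KO #4 library a, the one at 0, the log2 ratio of -4.79 became -3.79. In NPCs the low clone was the other one: Kcnq1 had 35.0 and 20.9 in WT, 25.1 and 17.7 in KO #4, which overlapped, and 6.30 and 7.68 in KO #8, at 0.250-fold of WT. In naive cells KO #4 had 1, 0 and 2 reads, KO #8 1, 2 and 7 and WT 6, 14 and 5 (WT over KO #4 8.07, interval 2.47 to 41.9; without WT library b or KO #4 library c the log2 ratio of -3.01 became -2.39 or -4.07). In primed cells no group had more than 6 reads in all.

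Phlda2, an inhibitor of placental growth, was the member with the widest gap between the base means of the 2 CM tables. It had 339 and 233 normalized reads in WT, 156 and 195 in KO #4 and 1099 and 1017 in KO #8. The clones lay on opposite sides of WT, KO #8 at 3.70-fold (1058 ± 57.7 against 286 ± 75.6, SD, n = 2) and KO #4 at 0.613-fold (175 ± 27.3). In NPCs Phlda2 had 54.9 and 62.6 in WT, 69.5 and 77.2 in KO #4 and 63.9 and 122 in KO #8, both clones slightly above WT at 1.25-fold and 1.58-fold. In naive and primed cells its reads could not be solved for, and the base means of the 2 tables were 324 and 354, and 1724 and 1641.

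Slc22a18, a transporter gene beside Phlda2, was lower in both clones in primed cells. It had 73.2 and 61.9 normalized reads in WT, 37.7 and 38.0 in KO #4 (0.560-fold) and 24.2 and 49.1 in KO #8 (0.543-fold; without KO #8 library b the log2 ratio of -0.88 became -1.48). In NPCs KO #4 had 14.5 and 14.6 and WT 17.0 and 22.9, a ratio of 0.727, whereas KO #8, with 18.0 and 25.0, overlapped WT. In CMs KO #4 had 14.4 and 5.26 and WT 23.3 and 15.8, a log2 ratio of -0.99 that became -1.89 without KO #4 library a. KO #8 had 10.3 and 21.5 and overlapped WT.

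Ascl2, at the other end of the domain, was higher than WT in NPCs and CMs in both clones. In naive cells the 23 solutions put the means of both clones above WT in 17 and below it in the others, so its side of WT is not known, and the base means were 67.6 and 68.3. In primed cells KO #4 (111 and 149) lay below WT (154 and 172), at 0.798-fold, and KO #8 (163 and 140) overlapped it. In NPCs Ascl2 had 22.7 and 29.2 in WT, 50.2 and 60.5 in KO #4 (2.13-fold) and 37.8 and 97.0 in KO #8 (2.60-fold), where the log2 ratio of KO #8 went from 1.38 to 0.54 without its library b. In CMs it had 23.3 and 7.88 in WT, 41.0 and 39.96 in KO #4 and 38.5 and 27.7 in KO #8. The WT libraries of this stage differed most from each other: without WT library a the log2 ratios of 1.38 (KO #4) and 1.08 (KO #8) became 2.36 and 2.07. Markers of trophoblast, where Ascl2 is best known, summed to 36.9 ppm in the KO #4 table and 64.6 in the KO #8 table of NPCs. In the CM tables they summed to 64.6 and 252, most of it Hand1 (38.95 and 235.3), and Cdx2 went the same way (2.60 and 10.25). Tfap2c (19.5 and 6.26), Tpbpa (2.83 and 0.156), Gcm1 (0.497 and 0.119) and Elf5 went the other way in CMs. Elf5 was below 1 ppm in all 4 tables, and the part of such cells was not tested.

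**Figure D3:**
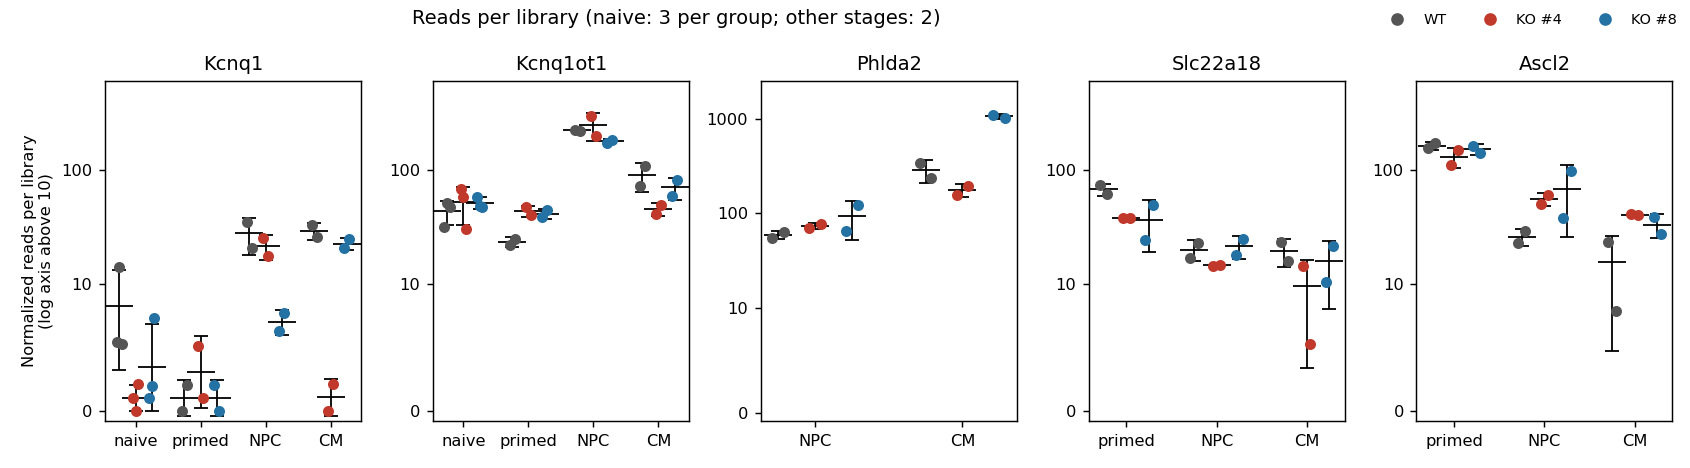
Normalized reads in each library (dots) with the group mean and SD (bars) for the 5 members of the Kcnq1 domain with reads per library; the vertical axis is linear up to 10 and logarithmic above. Kcnq1 in KO #4 CMs (0 and 2.10) and Phlda2 in KO #8 CMs (1099 and 1017) stand apart from their WT libraries (32.6 and 25.6, and 339 and 233), and Ascl2 has no naive values.

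How often the libraries of a clone and of WT do not overlap was counted for all genes with solved reads, with base means of 10 to 250 (5 to 30 in naive cells). Naive H19 and Kcnq1ot1, primed H19 and Phlda2 in CMs lie above these ranges and primed Kcnq1 below, but they are counted among the members. In primed cells 53.8% of genes did not overlap in KO #4 and 49.9% in KO #8, against 5 and 4 of the 6 members with reads. In NPCs the shares were 54.4% and 52.9%, against 3 and 4 of 5 members. In CMs they were 75.2% and 59.4%, against 5 and 3 of 5. In naive cells, with 3 libraries a group, they were 26.3% and 27.2%, against 2 and 0 of 3. A gene that does not overlap WT is thus common, and the members' counts are read as nothing beyond these shares.

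Cdkn1c, the cell cycle inhibitor of the domain, was too high to be solved at every stage. Its base means in the KO #4 and KO #8 tables were 197 and 250 (naive), 1130 and 1244 (primed), 14085 and 13064 (NPC) and 8635 and 13491 (CM). The tables of a stage were brought to 1 scale by the median ratio of their base means, and a ratio of at least 1.5 was taken as apart. On this scale the Cdkn1c tables were apart only in CMs, where KO #8 exceeded KO #4 by 8897 normalized reads and by a factor of at least 1.52. Because WT enters both tables, the ratio of the base means is a lower bound of the ratio of the clones.

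Cd81 and Nap1l4, at the edges of the Kcnq1 domain, differed little between the tables. The base means of Nap1l4 in the KO #4 and KO #8 tables were 7413 and 7353 (naive), 3327 and 3247 (primed), 4027 and 4261 (NPC) and 4030 and 4088 (CM), and its log2 ratio after scaling lay between -0.03 and 0.02. Those of Cd81 were 5724 and 5758, 2154 and 2066, 3206 and 3122, and 2743 and 3573 in the same order. Its largest difference was the last, where KO #8 exceeded KO #4 by 1443 normalized reads.

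H19 had the largest ratio of all genes between the tables of naive cells (rank 1 of 13737 genes that reach a base mean of 10) and of primed cells (rank 1 of 13215), and rank 9 of 14414 in NPCs, but 5522 of 14309 in CMs. Of all genes, 1.24% were apart by at least 1.5 times in the naive, 0.885% in the primed, 3.05% in the NPC and 16.9% in the CM tables. Among the members this held for 1 of 9 in the naive and again in the primed tables (H19), 2 of 10 in the NPC tables (H19 and Igf2) and 4 of 10 in the CM tables (Igf2, Kcnq1, Cdkn1c and Phlda2, all higher in the KO #8 table). Just inside the limit of 1.5 was Cdkn1c in CMs (1.52) and just outside it Kcnq1 in NPCs (1.41). The median log2 ratio of the members was -0.01, 0.02, 0.03 and -0.30 at the 4 stages, against -0.01 to 0.00 for all genes.

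**Figure D4:**
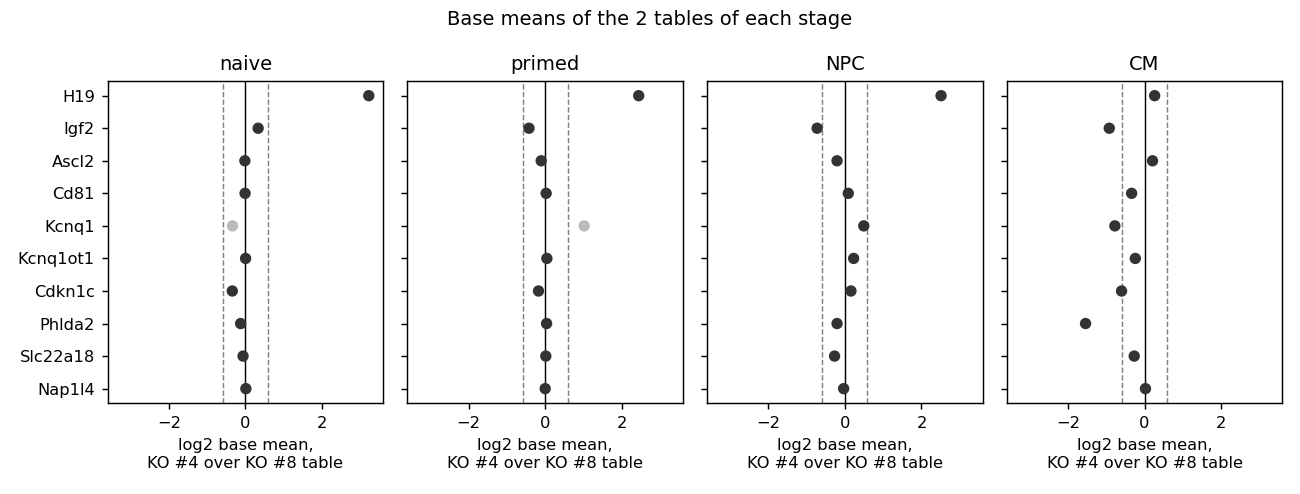
Log2 ratio of the base mean in the KO #4 table to that in the KO #8 table, for each member and stage; dashed lines mark a ratio of 1.5 and grey dots genes with a base mean under 10. H19 lies far to the right in naive cells (3.22), primed cells (2.44) and NPCs (2.51) and near 0 in CMs (0.26), where Igf2 and Phlda2 lie to the left (-0.92 and -1.54).

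H19, Igf2 and Cdkn1c had the widest range of levels across the stages. In ppm, and as the mean of both tables, Igf2 was lowest in naive cells (1.53) and highest in CMs (4421), a ratio of 2892, and H19 was lowest in naive cells (1.09) and highest in NPCs (1579), a ratio of 1450. These levels pool WT and KO libraries, and the stages were normalized separately. For H19 the tables of the 2 clones differed in the highest stage. It had 2684.5 ppm in NPCs and 761 in CMs in the KO #4 tables, but 473 and 631 in the KO #8 tables. Igf2 in NPCs (4234) and CMs did not differ beyond the gap between the 2 tables of a stage (3185 and 5283, and 3066 and 5775). Cdkn1c was lowest in naive cells (6.20) and highest in NPCs (795), with CMs (602) and primed cells (69.7) between. Phlda2 had its highest level in primed cells (98.7) and its lowest in NPCs (4.23). Ascl2 was also highest in primed cells (8.80), followed by NPCs (2.60), naive cells (1.88) and CMs (1.45).

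Kcnq1ot1 was highest in NPCs (12.9 ppm) and lowest in naive cells (1.32), and Kcnq1 was highest in NPCs (1.26) and CMs (1.13), where the 2 tables overlap, and lowest in primed cells (0.0878). Slc22a18 was highest in naive cells (4.45) and lowest in CMs (0.898). Cd81 (124 to 185) and Nap1l4 (193 to 242) varied least, by factors of 1.50 and 1.26. Per kilobase of exon, which allows genes to be compared, the order in NPCs was Igf2 (771 ppm per kb), H19 (666), Cdkn1c (411), Nap1l4 (106), Cd81 (81.6), Phlda2 (5.59), Ascl2 (1.62), Slc22a18 (0.660) and Kcnq1 (0.407). In naive cells the order began instead with Nap1l4 (89.6), Cd81 (70.2) and Phlda2 (12.4) and put H19 (0.459) and Igf2 (0.278) above Kcnq1 (0.0470) only. Both orders are of the mean of the 2 tables of a stage, and the places of H19 and Igf2 differed between these tables. In NPCs H19 stood first per kb in the KO #4 table and below Igf2 and Cdkn1c in the KO #8 table. In naive cells H19 stood above Igf2 in the KO #4 table only.

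**Figure D5:**
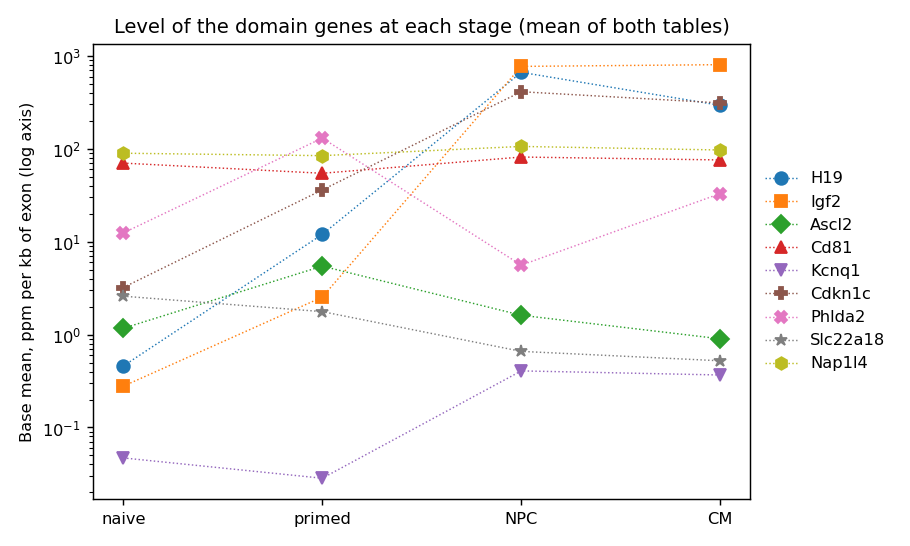
Base mean in ppm per kb of exon (logarithmic axis, mean of both tables of a stage) for the 9 members with an annotated length; dotted lines only join the points of a gene. H19, Igf2 and Cdkn1c go from 0.459, 0.278 and 3.21 in naive cells to 666, 771 and 411 in NPCs, whereas Nap1l4 and Cd81 lie between 54.5 and 106.

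Over the 8 tables the 5 genes most like H19, by Pearson correlation of log2 levels, were Tymp (r = 0.987), Gm3500 (0.978), Cops8 (0.977), Thbs3 (0.976) and Glis1 (0.976). For Igf2 they were Akap13, Cotl1, Ssc5d, Pth1r and Ttll7, all at 0.999. Of the members, Cdkn1c was closest to both, with r = 0.958 for H19 and 0.969 for Igf2, and Slc22a18 the most opposite, with -0.943 and -0.982. The points are 8 pooled tables that share WT libraries in pairs and fall into 4 stages, so these values are descriptions of the stages.

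A list of 19 neighbouring genes, between the members and on both sides of them, was described in the same way. Among those that reach a base mean of 10, 0 of 10 were apart by 1.5 times in both stem cell stages, 2 of 14 in the NPC and 3 of 14 in the CM tables, with median log2 ratios between -0.01 and 0.02. The shares over all genes were 1.24% (naive), 0.885% (primed), 3.05% (NPC) and 16.9% (CM). In NPCs Trpm5, a cation channel gene between Ascl2 and Kcnq1, had 55.9 and 28.2 normalized reads in WT, 150 and 124 in KO #4 and 43.2 and 34.6 in KO #8. The troponin gene Tnni2 had 3.79 and 15.6, 18.3 and 24.0, and 4.50 and 8.64. In both genes the KO #4 libraries lay above all others. The smallest NPC ratios were those of Mrgpre (log2 -0.17), Osbpl5 (-0.15) and Ctsd (-0.12).

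In CMs Tspan32, a tetraspanin gene of blood cells beside Cd81, had 85.8 and 71.9 normalized reads in WT, 0 and 4.21 in KO #4 and 180 and 200 in KO #8. WT was thus 37.5-fold above KO #4 (95% exact interval of 14.6 to 141 for counting error), and KO #8 2.41-fold above WT, with the blood globins Hba-x at 59.4 and 344 and Hbb-bh1 at 64.7 and 345 ppm in the KO #4 and KO #8 tables beside it. Tnnt3, a skeletal muscle troponin gene, had 39.2 and 51.2 in WT, 18.5 and 14.7 in KO #4 and 76.1 and 49.2 in KO #8. Tnfrsf22 was apart in the other direction, with base means of 317 and 213. Trpm5, named for CMs after its values were seen, had 3 reads in WT, 0 in KO #4 and 18 in KO #8. Tspan32 and Kcnq1, on either side of Cd81, were thus both near 0 in KO #4 CMs.

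The IGF pathway list holds receptors, binding proteins and signalling partners of Igf2. None of 14 measured genes were apart in naive cells and none of 15 in primed cells. In NPCs 3 of 19 were apart: Igf2r, the receptor that clears Igf2 and is itself imprinted (base means of 4519 in the KO #4 and 8545 in the KO #8 table), the protease gene Pappa2 (182 and 328) and Irs4, a docking protein of the receptor (169 and 101). In CMs 8 of 19 were apart, with Igf2r (14910 and 24739), Igf1 (530 and 954) and the binding proteins Igfbp1, Igfbp4, Igfbp5 and Igfbp6 higher in the KO #8 table and Igfbp2 (16313 and 6327) and Irs4 (1903 and 1199) higher in the KO #4 table. The median log2 ratios were -0.07, -0.02, 0.09 and 0.03. Over all genes the shares apart were 1.24%, 0.885%, 3.05% and 16.9% in the order naive, primed, NPC, CM.

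Of 14 genes listed as regulators of imprinting, among them Ctcf, Zfp57, Trim28, Dnmt1 and Uhrf1, none were apart in naive or primed cells. In NPCs Dnmt3l (75.7 and 144), the adhesion gene Cdh1 (1279 and 2218), which is no regulator of imprinting, and Dppa3 (42.9 and 69.3) were higher in the KO #8 table, and in CMs Dppa3 (192 and 67.5) and Dnmt3l (343 and 117) were higher in the KO #4 table. Of a list of 20 other genes, imprinted except for Cdkn1a and Cdkn1b, 6 of 16 were apart in the naive tables, 7 of 18 in the primed, 6 of 19 in the NPC and 11 of 19 in the CM tables. For both lists the shares over all genes were 1.24%, 0.885%, 3.05% and 16.9% in this order.

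Mest was higher in the KO #4 table at all 4 stages (2317 and 1204, 1927 and 1158, 19531 and 12968, and 35466 and 19341, in the order naive, primed, NPC, CM) and Grb10, a growth inhibitor that binds the insulin receptor, higher in the KO #8 table at all 4 (2008 and 3133, 2084 and 3455, 10813 and 19253, and 15579 and 28456). Peg3 was higher in the KO #4 table in naive (2511 and 1059) and primed cells (3873 and 1256) and lower in CMs (12463 and 20185). Mest, Grb10 and Peg3 are examples from the genes of this list that were apart, and the others are not described. The list was written with earlier results of these data known, and its share is not evidence of a pattern among imprinted genes.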

How the data were processed

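The authors trimmed the reads (Trim Galore 0.6.7), aligned them to mm9 (HISAT2 2.2), used featureCounts for the reads of each gene, and set each clone against WT in DESeq2 1.46.0 (versions from the submitters' processing notes). The settings for strand and for reads on several genes are not given in the sources used here. The deposited base mean is a signal the authors computed, the mean of reads divided by size factors over the libraries of a table. The authors' comparison columns (log2 fold change, standard error, Wald statistic, p-value, adjusted p-value) were not used.

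The members and lists were chosen with earlier results of these data known. Whole reads per library were solved for with Python 3.11.15 and numpy 2.4.6, with base mean limits of 250 (30 in naive cells), and for members of 850 (75). The method was run on simulated data of naive and primed cells, with base means up to 250 (30 in naive cells) only. Solutions for members above these limits were not tested by simulation. These are H19, Kcnq1ot1, Igf2 and Ascl2 in naive cells, H19 and Igf2 in primed cells and Phlda2 in CMs. Depth, as size factor times table total, was 15.1 to 39.7 M reads per library. Intervals cover counting error only, and the floor covers only that of the group at 0 reads. The planned limma test needed reads for 95% of genes. They were solved for 30.5 to 51.4% of genes above 0, so it was not run and no p-value is given. Named were all members and the genes of the IGF pathway and regulator lists apart by at least 1.5 times. Of the neighbours with the 3 largest or smallest ratios of a stage, and of the other imprinted genes apart, only some were named. Rows inside H19 and Igf2 were added after their values were seen. Alternatives were other scalings between tables, leaving out each library, other lengths and other additions before the log. Plots used matplotlib 3.10.9.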

Additional observations from a re-analysis of the deposited data

Results flagged for a closer look

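Results in which every library of 1 group lay on one side of WT and every library of another on the opposite side are listed here as differences of log2 ratios of clone over WT. None of these differences was tested. Of all genes with solved reads and base means of 10 to 250, 2.37% lay on opposite sides of WT in the 2 clones in primed cells and 18.4% in CMs; the mean of both base means lies above this range for H19 in primed cells and Phlda2 in CMs. Between the clones this held for H19 in primed cells (log2 2.68 in KO #4 and -1.45 in KO #8, a difference of 4.13) and for Phlda2 in CMs (-0.71 and 1.89, a difference of -2.59).

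Between stages it held for Ascl2 in KO #4, where primed minus NPC was -1.42 and primed minus CM -1.70. For Kcnq1ot1 primed minus CM was 1.88 in KO #4, and primed minus NPC 1.14 in KO #8. For Phlda2 in KO #4 NPC minus CM was 1.03. Of all such genes with solved reads at both stages, 10.7% were opposite between primed cells and NPCs in KO #4 and 9.66% in KO #8, 15.8% between primed cells and CMs in KO #4 and 16.3% between NPCs and CMs in KO #4. Groups of 2 or 3 libraries are too small for a single library to be judged as standing apart.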

How the results depend on the processing

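No paired analysis was possible because the values per library carry no replicate number. The planned limma fits (with trend, with voom weights, with a filter on low values and with a block) were not run, since reads were not solved for enough genes, and reads scaled to library totals were not computed, since the totals could not be solved for.

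Under the other 4 scalings between the tables of a stage the counts of members apart by 1.5 times were the same at every stage, and no log2 ratio of a member crossed that limit. Leaving out the 50 genes with the highest base mean kept the stage of the highest level of all 10 members. Of the 5 genes most like H19, 1 was kept with 1 ppm added before the log and 3 without the filter on low values, and for Igf2 3 and 5. In the order of levels per kb, the length of the longest transcript left 7 of 9 members in place in naive cells, NPCs and CMs and all 9 in primed cells. Leaving out 1 library at a time, the number of members whose libraries do not overlap WT ranged in KO #4 from 2 to 3 (naive), 5 to 6 (primed), 3 to 5 (NPC) and 5 to 5 (CM), and in KO #8 from 0 to 2, 4 to 5, 4 to 5 and 3 to 5 in the same order. The highest values came without KO #4 library a in NPCs (from 3), without KO #8 library b in CMs (from 3) and without WT library b in naive KO #8 (from 0); fewer libraries overlap less often by construction.

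When the solution that keeps each group within a factor of 2 was taken for naive Igf2 and Ascl2, a rule added after the data were seen, 4 naive members did not overlap WT in KO #4 and 2 in KO #8. This rule was not used, because 10 of the 19 combinations of member and stage with 1 solution break it. Depth limits Kcnq1 in naive and primed cells, with at most 25 reads per group.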
